A study of Mus musculus with 13 samples.

Results

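The T cell receptor and its partners were followed in SM1 tumours through 10 genes: the CD3 chain genes Cd3d, Cd3e and Cd3g, the receptor beta variable segment Trbv1, the signalling genes Zap70 and Lat, the coreceptor genes Cd8a and Cd4, and the T cell surface genes Cd6 and Ms4a4b. They were chosen by symbol, with earlier results of these data known. They are 10 of the 18193 genes that the array annotation names by a single symbol. Their 19 probe sets, out of 45101 on the array, are those annotated to 1 of these symbols alone. SM1 is a BRAF V600E mutant mouse melanoma line, and every host was a C57BL/6 mouse given donor splenocytes (adoptive cell transfer). Donors were either pmel-1 mice, in which a transgenic T cell receptor recognises the melanocyte protein gp100, or unmodified C57BL/6 mice as a control. After control transfer, tumours were taken from mice given vehicle (Mock_V, 2 arrays) or dabrafenib, a BRAF inhibitor, with trametinib, a MEK inhibitor (Mock_D+T, 2 arrays). After pmel-1 transfer the mice were given vehicle (Pmel_V, 2 arrays), dabrafenib (Pmel_D, 2 arrays), trametinib (Pmel_T, 2 arrays) or both drugs (Pmel_D+T, 3 arrays). No group without transfer was analysed here. All tumours came from 1 line. Whether the hosts were depleted of their own lymphocytes is not given in the sources used here, and the labels do not say that replicates are different mice. The p-values therefore reflect array-to-array spread, which may be technical.

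The receptor on most T cells is an alpha and beta chain pair that binds antigen and cannot signal by itself. It leaves the cell's interior only together with the CD3 gamma, delta and epsilon chains, whose tails are phosphorylated when antigen is bound. The kinase Zap70 docks on these tails and phosphorylates the membrane adaptor Lat, on which further signalling proteins gather. CD8 marks cytotoxic T cells and CD4 helper T cells, and pmel-1 T cells are CD8 cells restricted to MHC class I. In a tumour, which has few T cells among many cancer cells, transcripts of these genes are commonly read as a measure of T cell content. In whole tumours, fewer T cells and less RNA per T cell cannot be told apart.

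The sequence before the start of the gene was at hand for 7 of the 10 genes, in RefSeq's mouse annotation (GRCm38.p6): Cd3d, Cd3e, Cd3g, Zap70, Lat, Cd8a and Ms4a4b. Cd4, Cd6 and Trbv1 had no entry. The CD3 chain genes are shown because they lie together on chromosome 9 and moved together in these tumours, and Ms4a4b as a gene outside the receptor complex that was near background in pmel-1 tumours given vehicle and high in those given both drugs. Each line gives the 250 bases before the transcript start listed there, read 5′ to 3′ along the gene's own strand, with matched motifs in capitals.
Cd3g, chr9:44980432-44980681, minus strand: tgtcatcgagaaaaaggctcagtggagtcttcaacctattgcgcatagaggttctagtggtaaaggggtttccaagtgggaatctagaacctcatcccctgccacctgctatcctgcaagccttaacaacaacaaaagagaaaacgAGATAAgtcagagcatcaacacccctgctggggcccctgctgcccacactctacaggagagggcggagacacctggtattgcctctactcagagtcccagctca
Cd3d, chr9:44981536-44981785, plus strand: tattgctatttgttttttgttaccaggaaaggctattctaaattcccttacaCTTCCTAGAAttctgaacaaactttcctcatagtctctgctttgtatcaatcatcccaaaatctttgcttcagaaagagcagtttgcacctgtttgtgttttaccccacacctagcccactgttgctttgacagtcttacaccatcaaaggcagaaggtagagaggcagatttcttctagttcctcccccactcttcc
Cd3e, chr9:45009612-45009861, minus strand: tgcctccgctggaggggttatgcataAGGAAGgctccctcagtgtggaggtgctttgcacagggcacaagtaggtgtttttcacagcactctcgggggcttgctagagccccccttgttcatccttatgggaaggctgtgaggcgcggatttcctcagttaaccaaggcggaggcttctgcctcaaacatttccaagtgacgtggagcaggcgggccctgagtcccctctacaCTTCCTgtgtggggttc
Ms4a4b, chr19:11443308-11443557, plus strand: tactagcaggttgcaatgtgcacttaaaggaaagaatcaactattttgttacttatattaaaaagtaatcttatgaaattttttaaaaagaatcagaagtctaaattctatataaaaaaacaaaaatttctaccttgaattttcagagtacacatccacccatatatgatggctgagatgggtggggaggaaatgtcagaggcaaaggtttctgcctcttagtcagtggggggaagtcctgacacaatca

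The listed starts of Cd3g and Cd3d are 1355 bases apart and the genes are read away from each other. That of Cd3e is 27825 bases from that of Cd3d. The same annotation begins Cd3d and Cd3e at a point within the printed stretch, so its last bases can be transcribed. Short motifs of 6 kinds of factor were searched for on both strands, and their frequency was counted over 32851 promoter stretches of the same length. The ETS motif was AGGAAG, found in 29.5% of promoters. The GATA motif was searched for as AGATAA and is in 9.99%. The STAT-type GAS element was taken as TTCNNNGAA, which 7.02% of promoters hold. The remaining 3 were a RUNX motif, TGTGGT (4614 promoters), the lymphoid E-box, read as CAGCTG (4271 promoters), and the TCF motif in the form TTCAAAG (4.46%). The Cd3g stretch holds 1 GATA match. The Cd3d stretch holds an ETS match that overlaps a GAS match. In the Cd3e stretch there are 2 ETS matches, 224 and 17 bases before the listed start. The Ms4a4b stretch holds none of the 6 motifs, nor does that of Cd8a, and Lat holds 1 ETS match. None of the 6 motifs is in all 3 CD3 windows. A match is a run of letters and not a measured site.

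Values are log2 intensities, normalised by the authors, and no depth applies to arrays; the small number of arrays limits the precision. A level of 5.79, the 40th percentile of all values, was used as the lower limit for testing: 13785 genes above it on at least 2 arrays were tested, all 10 T cell genes among them through the brightest probe set of each. Values under 5.79 are treated as near background, and no fold is given against a group with every array under it. Cd3g and Ms4a4b exceeded 5.79 on 5 arrays each, those of Pmel_D and Pmel_D+T, and so entered the test only through the groups where they are high. Trbv1 exceeded it on 9 arrays, all after pmel-1 transfer, and so entered only through the pmel-1 groups. Counts that include them are therefore descriptions and support nothing, and their differences from groups near background depend on values that the array may not resolve. Without the lower limit the same 28 differences passed over all comparisons. Differences are log2 differences of group means ± SE from limma, and a gene is said to rise or fall when its p, adjusted by Benjamini-Hochberg over all genes tested, is under 0.05. The melanocyte gene Pmel read 12.3 to 14.2 over the arrays, as a melanoma label implies. RNA integrity moved with the groups: the log2 ratio of 3′ to 5′ signal of control transcripts was 1.08 ± 0.38 (SD, n = 7) in the drug-treated pmel-1 tumours and 0.26 ± 0.09 (SD, n = 6) in all others, without overlap. The fat gene Adipoq was high on 3 arrays (Pmel_D replicate 2, 10.32; Pmel_D+T replicate 2, 10.05; Pmel_T replicate 1, 9.30), intermediate in Pmel_D+T replicate 3 (7.54) and at most 5.97 elsewhere, and the muscle gene Acta1 was high only in Mock_V replicate 3 (9.90). The 3 arrays are called the 3 tumours high in Adipoq below.

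**Figure D1:**
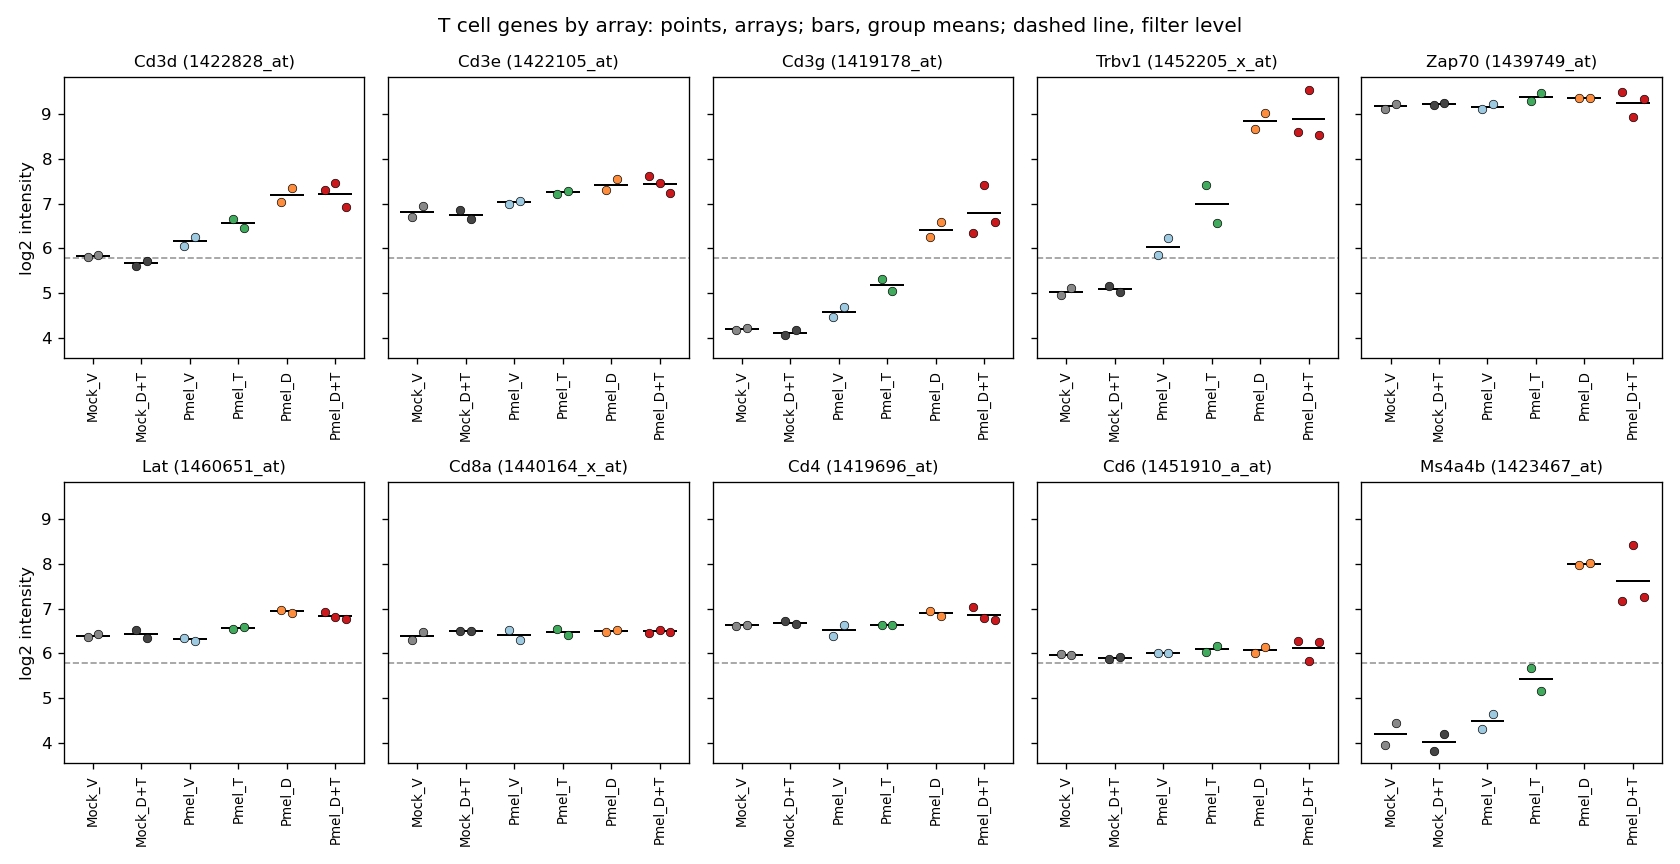
Log2 intensity (vertical axis) of the tested probe set of each of the 10 T cell genes on each of 13 arrays, by group; points are arrays, bars are group means and the dashed line is the filter level of 5.79. Trbv1, Ms4a4b, Cd3g and Cd3d stand highest in the Pmel_D and Pmel_D+T groups, whereas Cd8a, Zap70 and Cd6 stay within a narrow band.

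The receptor genes were lowest in control tumours, with or without drugs, and highest in pmel-1 tumours given dabrafenib or both drugs, with pmel-1 tumours given vehicle and then trametinib in between. Only some of these gaps passed the test, as given gene by gene further on. The widest span was that of Trbv1 among the receptor genes, read by a probe set designed on a beta chain transcript (1452205_x_at). Whether this probe set reads only the Trbv1 segment or beta chain transcripts more widely was not tested. It read 4.95 and 5.11 in Mock_V and 5.16 and 5.02 in Mock_D+T, all near background. In the pmel-1 tumours it read 5.85 and 6.22 with vehicle, 7.41 and 6.57 with trametinib, and 8.68 and 9.02 with dabrafenib. With both drugs it read 8.61, 9.54 and 8.53. No array of the pmel-1 dabrafenib or combination groups was as low as any array of the other 4 groups, while the Pmel_D and Pmel_D+T values overlapped, as did those of Mock_V and Mock_D+T. A second Trbv1 probe set (1433108_at), designed on another transcript, read 4.10 to 4.71 on all 13 arrays.

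Cd3g, the gamma chain of the CD3 complex, gave 4.17 and 4.23 in Mock_V and 4.05 and 4.17 in Mock_D+T. It gave 4.46 and 4.70 in Pmel_V, 5.32 and 5.06 in Pmel_T, 6.26 and 6.58 in Pmel_D, and 6.35, 7.42 and 6.59 in Pmel_D+T. Only the last 2 groups rose above 5.79. Cd3d, the delta chain, was brighter at the bottom, with 5.80 and 5.86 in Mock_V and 5.61 and 5.71 in Mock_D+T. Its values then climbed through 6.06 and 6.25 in Pmel_V and 6.66 and 6.46 in Pmel_T to 7.03 and 7.35 in Pmel_D and 7.30, 7.45 and 6.92 in Pmel_D+T. For both genes the Pmel_V, Pmel_T and Pmel_D arrays did not overlap one another, and the Pmel_D and Pmel_D+T arrays did. Cd3e, the epsilon chain, kept the same order in a smaller range: 6.69 and 6.95 in Mock_V, 6.86 and 6.65 in Mock_D+T, 6.99 and 7.07 in Pmel_V, 7.21 and 7.28 in Pmel_T, 7.29 and 7.56 in Pmel_D, and 7.63, 7.46 and 7.23 in Pmel_D+T. The Pmel_T range overlaps that of Pmel_D+T, and the control groups overlap each other.

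Ms4a4b, a tetraspanning membrane protein of T cells and NK cells, went from near background to well above it. Its values were 3.95 and 4.44 in Mock_V, 3.82 and 4.19 in Mock_D+T and 4.31 and 4.64 in Pmel_V, all near background. They were 5.68 and 5.16 in Pmel_T, 7.97 and 8.03 in Pmel_D, and 7.17, 8.43 and 7.25 in Pmel_D+T. Pmel_T lay above every vehicle and control array and below every Pmel_D and Pmel_D+T array. Its other probe set (1425325_at) read 3.50 to 4.05 throughout.

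The signalling genes moved less. Lat, the adaptor, read 6.36 and 6.42 in Mock_V, 6.53 and 6.34 in Mock_D+T, 6.35 and 6.28 in Pmel_V and 6.55 and 6.59 in Pmel_T. It read 6.97 and 6.90 in Pmel_D and 6.93, 6.81 and 6.77 in Pmel_D+T, above every array of the other groups. Zap70, the kinase, has 3 probe sets. The brightest (1439749_at), which was the one tested, read between 8.94 and 9.50 over all arrays, and both of these extremes were Pmel_D+T tumours. The one designed on the RefSeq transcript (1422701_at) read 5.97 and 6.03 in Mock_V, 5.68 and 5.69 in Mock_D+T, 5.85 and 5.95 in Pmel_V, 5.84 and 5.89 in Pmel_T, 6.27 and 5.95 in Pmel_D, and 6.32, 6.03 and 6.25 in Pmel_D+T. In Pmel_D+T all 3 arrays were above both Pmel_V arrays, but the difference of 0.29 ± 0.12 did not pass over all probe sets (adjusted p = 0.0998, limma). The third (1440178_x_at) averaged 6.27 in Mock_V, 6.31 in Mock_D+T, 6.31 in Pmel_V, 6.52 in Pmel_T, 6.76 in Pmel_D and 6.61 in Pmel_D+T. Over all probe sets it differed from Pmel_V by 0.45 ± 0.17 in Pmel_D (adjusted p = 0.0800, limma) and by 0.30 ± 0.16 in Pmel_D+T (0.206). Neither passed.

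The coreceptors gave less uniform readings. Cd4 read 6.62 and 6.64 in Mock_V, 6.71 and 6.65 in Mock_D+T, 6.39 and 6.64 in Pmel_V and 6.62 and 6.64 in Pmel_T. It reached 6.95 and 6.83 in Pmel_D and 7.03, 6.79 and 6.74 in Pmel_D+T, and its second probe set (1427779_a_at) stayed between 5.64 and 5.87. Cd6, a surface receptor that binds CD166 and tunes T cell activation, stayed between 5.84 and 6.27 over all 13 arrays, with both extremes in Pmel_D+T.

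Cd8a has 5 probe sets and they went different ways. The brightest (1440164_x_at), taken for the test, read 6.29 to 6.54 over all 13 arrays. Its groups overlapped in every direct comparison but that of Mock_D+T with Mock_V, where the difference of 0.12 did not pass. The other 4 were dimmer, and 3 of them never passed 5.79. The probe set 1425335_at, designed on a Cd8a transcript, read 5.97 and 6.18 in Mock_V, 6.01 and 5.91 in Mock_D+T, 6.09 and 5.94 in Pmel_V and 6.10 and 6.02 in Pmel_T. It read 6.41 and 6.68 in Pmel_D and 6.64, 6.79 and 6.43 in Pmel_D+T, above all others. Over the 13 arrays these 4 probe sets correlated with one another with Pearson r from 0.82 to 0.89, and with the brightest one from 0.41 to 0.51. These correlations describe probe sets that share arrays and carry no test. A test of Cd8a on its brightest probe set alone therefore differs from one on the others. Results of other Cd8a probe sets are given for both drugs and for dabrafenib against vehicle in pmel-1 recipients. They are also given for pmel-1 against control recipients under both drugs and for the interaction.

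**Figure D2:**
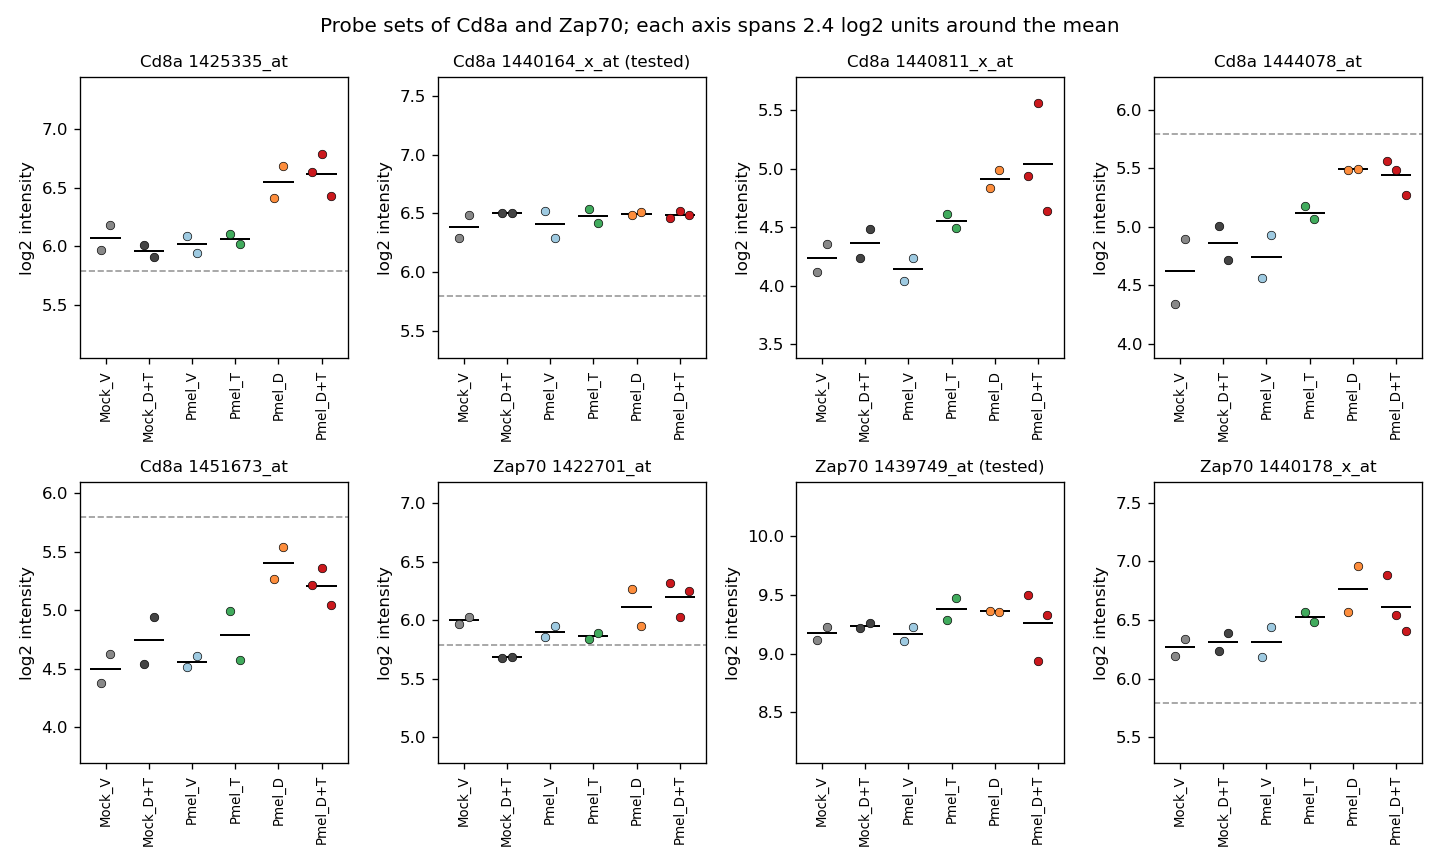
Log2 intensity of the 5 Cd8a and 3 Zap70 probe sets by array and group; points are arrays, bars are group means, the dashed line marks 5.79 where it falls within the axis, and each axis spans 2.4 log2 units. The tested Cd8a probe set (1440164_x_at) lies flat at 6.29 to 6.54, and the other 4 are highest in Pmel_D and Pmel_D+T.

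The first comparison asks what the 2 drugs together did to T cell transcripts in tumours of pmel-1 recipients. Of the 10 genes 7 rose in Pmel_D+T against Pmel_V and none fell. The share must be read against a background in which 45.6% of all genes tested changed in one direction or the other. Ms4a4b rose by 3.14 ± 0.33 (adjusted p = 3.40e-05) and Cd3g by 2.21 ± 0.25 (5.41e-05), both from values near background. Trbv1 rose by 2.86 ± 0.30, 7.25-fold (adjusted p = 3.57e-05), and Cd3d by 1.07 ± 0.16, 2.09-fold (0.000276). Lat rose by 0.52 ± 0.09 (adjusted p = 0.000958), Cd3e by 0.41 ± 0.14 (0.0308) and Cd4 by 0.34 ± 0.11 (0.0267). The tested Cd8a probe set differed by 0.08 ± 0.10, Cd6 by 0.11 ± 0.13 and Zap70 by 0.09, none of which passed (adjusted p = 0.554, 0.519 and 0.664, limma). The median over the 10 genes was 0.47, against 0.02 over all genes tested. The Cd3e call was lost without any 1 of Pmel_D+T replicates 1 and 2 and Pmel_V replicates 1 and 2 (0.32 to 0.45), and the Cd4 call without Pmel_D+T replicate 1 (0.25) or Pmel_V replicate 1 (0.22). Without the 3 tumours high in Adipoq, and likewise with the 3′ to 5′ ratio as a covariate, 5 of the 10 rose: Cd3d, Cd3g, Trbv1, Lat and Ms4a4b.

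When every probe set on the array was tested without a lower limit, a choice made after the data were seen, 11 of the 19 T cell probe sets rose in this comparison, from 8 of the genes, with 27.8% of all probe sets changed. The gene added was Cd8a, with 4 of its 5 probe sets. The probe set 1425335_at rose by 0.60 ± 0.13 (adjusted p = 0.00494), 1440811_x_at by 0.90 ± 0.21 (0.00708), 1444078_at by 0.70 ± 0.17 (0.00931) and 1451673_at by 0.64 ± 0.17 (0.0120, limma over all probe sets). The last 3 differences lie near background and no fold is given.

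In control recipients none of the 10 genes passed the same comparison. The differences of Mock_D+T from Mock_V ran from -0.18 (Ms4a4b) to 0.12 (Cd8a), with a median of -0.01, and limma called 0 of the 10 at an adjusted p under 0.05 and 0 at an unadjusted p under 0.05, while 35.4% of all genes tested changed. Cd3g, Trbv1 and Ms4a4b lay near background on all 4 arrays, which bounds what could be seen. The 95% interval for Cd3d was -0.55 to 0.21 and that for Cd3e was -0.40 to 0.27.

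The difference between these drug effects was tested as an interaction, the change under both drugs after pmel-1 transfer minus that after control transfer. It passed for Ms4a4b (3.32 ± 0.49, adjusted p = 0.0391), Trbv1 (2.79 ± 0.45, 0.0498) and Cd3g (2.30 ± 0.37, 0.0498), that is for 3 of 10 T cell genes, where 0.283% of all genes tested passed. Nothing is read from this count, since Ms4a4b and Cd3g were tested only through their high groups and Trbv1 only through the pmel-1 groups. All 3 genes were near background in both control groups, as were Ms4a4b and Cd3g in Pmel_V, so the sizes are not exact. Cd3d gave 1.24 ± 0.23 (adjusted p = 0.0661), Lat 0.48 (0.158), Cd3e 0.47 (0.288) and Cd4 0.29 (0.419). By their tested probe sets Cd6, Zap70 and Cd8a were between -0.04 and 0.19. Tested over all probe sets, the Cd8a probe set 1425335_at gave 0.72 ± 0.20 (adjusted p = 0.148, limma) and the Zap70 probe set 1422701_at gave 0.60 ± 0.18 (0.173). The 3 Cd8a probe sets near background gave 0.40 to 0.78, and none of these passed. Of all probe sets 0.206% passed, and the T cell probe sets among them were those of the same 3 genes. The calls lay close to the threshold: that of Cd3g was lost without any 1 of the Mock_D+T, Mock_V, Pmel_T or Pmel_V arrays (2.18 to 2.42), that of Trbv1 without any of these or Pmel_D+T replicate 1 (2.61 to 2.98), and that of Ms4a4b without any of these but Mock_V replicate 1 (3.08 to 3.51). With each array centred on its median Ms4a4b alone passed, with the 3′ to 5′ ratio as a covariate none of the 3 did, and without the 3 tumours high in Adipoq 3 genes passed.

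**Figure D3:**
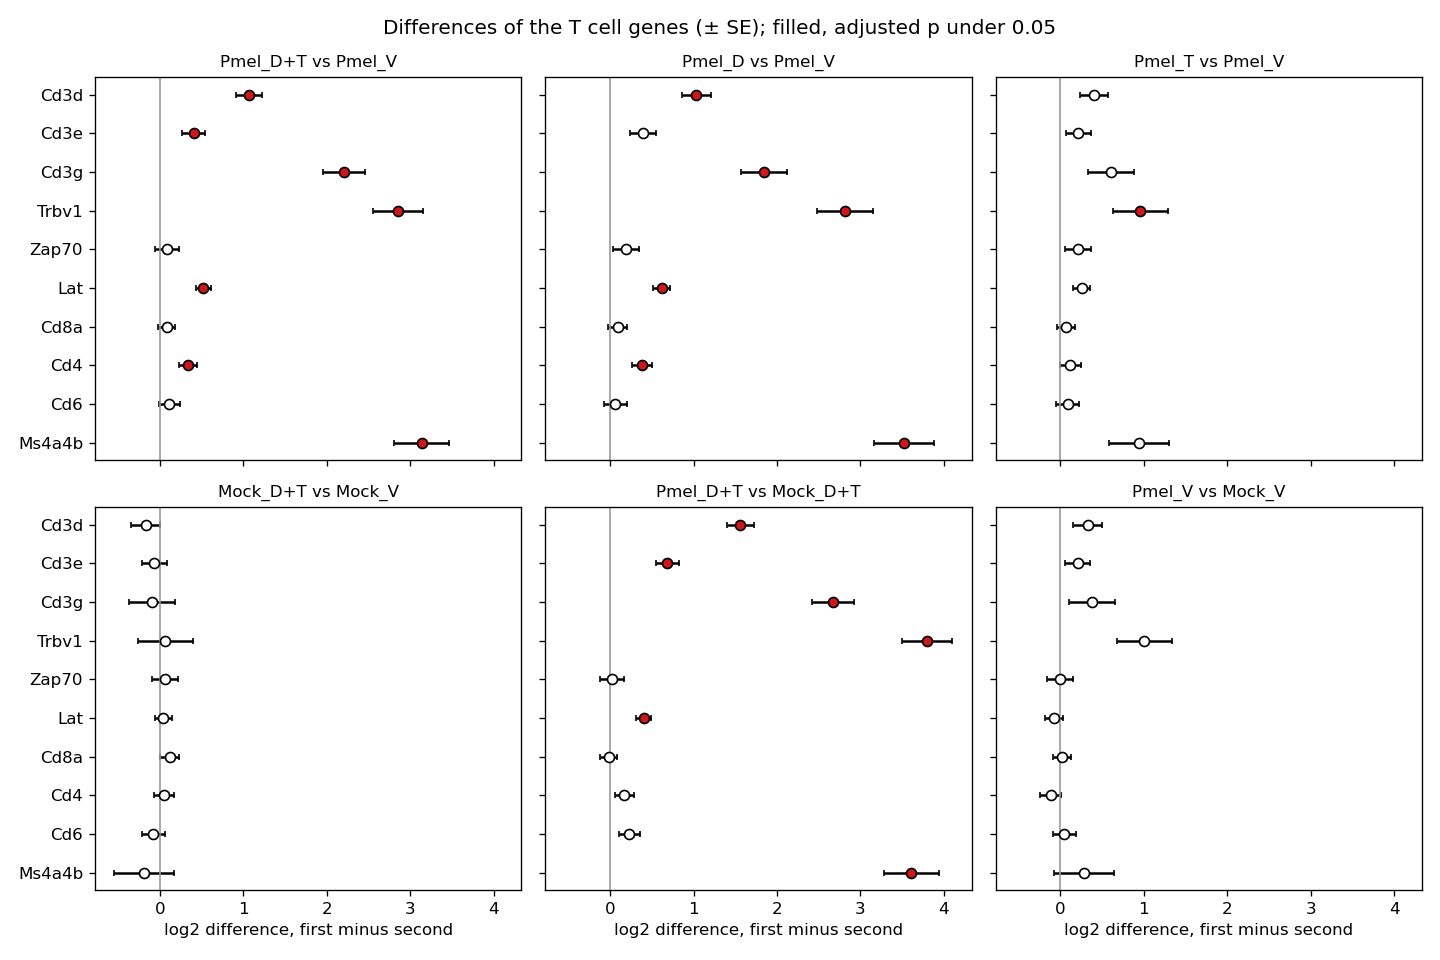
Log2 differences (horizontal axis, first group minus second, ± SE) of the 10 T cell genes in 6 comparisons; filled points have an adjusted p under 0.05. In Pmel_D+T against Pmel_V 7 points are filled, in Mock_D+T against Mock_V none, and Ms4a4b, Trbv1 and Cd3g lead wherever genes passed.

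The next pair of comparisons asks what pmel-1 transfer did, without drugs and with both. Without drugs, Pmel_V stood above Mock_V on both arrays for Trbv1, Cd3g, Cd3d, Cd3e and Cd6 and below it for Lat, but no T cell gene passed. How many of all genes separate in this way was not counted, so nothing is read from it. Trbv1 differed by 1.01 ± 0.33 (adjusted p = 0.242), Cd3g by 0.38 ± 0.27 and Cd3d by 0.33 ± 0.17 (0.465), and the others by -0.12 to 0.29. The 95% interval for Trbv1 ran from 0.28 to 1.73. Of all genes tested 0% passed here, although 1822 genes, Trbv1 being the 1 T cell gene, had an unadjusted p under 0.05 in limma.

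Under both drugs, pmel-1 tumours exceeded control tumours in 6 of the 10 genes, against a background of 4.24%, with a median of 0.54 over the 10 genes and -0.01 over all genes tested. Trbv1 was higher by 3.80 ± 0.30 (adjusted p = 0.000103), Ms4a4b by 3.61 ± 0.33 (0.000252), Cd3g by 2.67 ± 0.25 (0.000302) and Cd3d by 1.56 ± 0.16 (0.000418), each from control values under 5.79. Cd3e was higher by 0.68 ± 0.14 (adjusted p = 0.0234), 1.61-fold, and Lat by 0.40 ± 0.09 (0.0405), 1.32-fold. The Cd3e call was lost without either Mock_D+T array or without Pmel_D+T replicate 1 or 2 (0.58 to 0.79). The Lat call was lost without any 1 of 10 arrays, that is all but Pmel_D+T replicate 3 and the Pmel_D arrays (0.31 to 0.50). The first 4 genes passed without the 3 tumours high in Adipoq, and with the 3′ to 5′ ratio as a covariate. Over all probe sets, of which 1.75% passed, the Cd8a probe set 1425335_at was higher by 0.66 ± 0.13 (adjusted p = 0.0326), and Zap70 by its RefSeq probe set gave 0.51 ± 0.12 (0.0575).

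The single drugs were compared with vehicle in pmel-1 recipients, with the same 2 Pmel_V arrays as reference that served for the combination. Dabrafenib alone raised 6 of the 10 genes, where 41.4% of all genes changed: Ms4a4b by 3.52 ± 0.36 (adjusted p = 4.23e-05), Trbv1 by 2.81 ± 0.33 (9.56e-05), Cd3g by 1.84 ± 0.27 (0.000402), Cd3d by 1.04 ± 0.17 (0.000778), Lat by 0.62 ± 0.10 (0.000755) and Cd4 by 0.38 ± 0.12 (0.0270). Cd3e differed by 0.40 ± 0.15 and missed the threshold (adjusted p = 0.0557). Over all probe sets, with 24.8% changed, the same 4 Cd8a probe sets rose as with both drugs, by 0.53 ± 0.15 (1425335_at, adjusted p = 0.0188) to 0.84 ± 0.18 (1451673_at, 0.00530). The Cd4 call was lost without either Pmel_D array or without Pmel_V replicate 1 (0.26 to 0.44).

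Trametinib alone raised Trbv1, by 0.96 ± 0.33 or 1.94-fold (adjusted p = 0.0393), and none of the other 9, where 38.6% of all genes changed. Ms4a4b gave 0.94 ± 0.36 (adjusted p = 0.0591), Cd3d 0.40 ± 0.17 (0.0871), Cd3g 0.61 ± 0.27 (0.102) and Lat 0.26 (0.0710), and the rest 0.07 to 0.22. All of these values are above 0, and the median was 0.24 against 0.03 over all genes. The Trbv1 call was lost without any 1 of 7 arrays: both Mock_D+T, both Mock_V, both Pmel_V and Pmel_T replicate 1 (0.54 to 1.14). It was also lost without the 3 tumours high in Adipoq, 1 of which is Pmel_T replicate 1, with each array centred on its median and with the 3′ to 5′ ratio as a covariate. Over all probe sets, with 22.7% changed, no T cell probe set passed.

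The drug groups were then set against each other. Pmel_D+T and Pmel_D could not be separated: no T cell gene passed, at an unadjusted p under 0.05 either, and 0% of all genes passed (246 genes at an unadjusted p under 0.05, limma). The largest differences were -0.38 for Ms4a4b, with a 95% interval of -1.11 to 0.34, and 0.37 for Cd3g, with an interval of -0.18 to 0.92. The interval for Trbv1 was -0.62 to 0.71.

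More genes separated these groups from trametinib alone than from each other. In Pmel_D+T against Pmel_T, 3 of the 10 genes were higher, where 1.1% of all genes passed: Ms4a4b by 2.20 ± 0.33 (adjusted p = 0.0152), Trbv1 by 1.90 ± 0.30, 3.73-fold (0.0192), and Cd3g by 1.60 ± 0.25 (0.0192). Every Pmel_T array of Ms4a4b and Cd3g was near background, and both genes were tested only through the higher groups. Cd3d gave 0.66 ± 0.16 (adjusted p = 0.0763). In Pmel_D against Pmel_T, Ms4a4b was higher by 2.58 ± 0.36 (adjusted p = 0.0137) and Trbv1 by 1.86 ± 0.33, 3.62-fold (0.0316), so 2 of 10 against 0.776% of all genes, and Cd3g gave 1.23 ± 0.27 (0.0731). When only the 2 groups compared were fitted, no T cell gene passed in either comparison (Ms4a4b adjusted p = 0.0508 and 0.0952, Trbv1 0.0570 and 0.168, limma). Without Pmel_T replicate 2, none passed in either, and Ms4a4b differed by 1.94 and 2.32. Without Pmel_T replicate 1, Ms4a4b (2.45) and Cd3g (1.73) missed the threshold in the first comparison. Without Pmel_D replicate 2, both genes missed it in the second, and Trbv1 alone also did so without any 1 of the Mock_D+T and Pmel_V arrays (1.86).

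The wider receptor pathway was read from gene lists, chosen with earlier results of these data known. Of 17 further receptor, coreceptor and costimulatory genes, 12 were on the array by a single symbol and only 3 passed the lower limit: Cd96, Thy1 and Icos. None of the 3 passed in Pmel_D+T against Pmel_V (Cd96 0.35 ± 0.14, adjusted p = 0.0620; Thy1 0.58 ± 0.35; Icos -0.14). With dabrafenib alone Cd96 rose, by 0.48 ± 0.16 (adjusted p = 0.0270). Genes such as Cd247, the CD3 zeta chain, and Cd2, Cd5 and Cd28 stayed under the limit, so their differences were not tested.

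Of 20 signalling genes that act after the receptor, 11 were tested, and 5 rose and 1 fell in Pmel_D+T against Pmel_V (median 0.23), a share close to the 45.6% of all genes that changed. Ptpn22, a phosphatase that restrains receptor signalling, rose by 1.52 ± 0.17 (adjusted p = 5.65e-05) from near background. Lcp2, the SLP-76 adaptor that partners Lat, rose by 1.09 ± 0.19 (adjusted p = 0.000704), and Rasgrp1, which activates Ras in T cells, rose by 1.13 ± 0.20 (0.000955). These 3 were also the ones higher in pmel-1 than in control tumours under both drugs. Fyb, an adaptor found in myeloid cells and platelets too, rose by 2.12 ± 0.32 (adjusted p = 0.000301) after pmel-1 transfer and by 2.06 ± 0.35 (0.000905) after control transfer, and differed by -0.05 between the 2 combination groups. Themis, which acts in T cell development, rose by 0.59 ± 0.16 (adjusted p = 0.0110), and the Src-family kinase gene Fyn, which tumour cells can also express, fell by 0.62 ± 0.12 (0.00152). With trametinib Fyb, Ptpn22 and Plcg1 rose and Fyn fell. None of the 11 passed the interaction in limma.

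Among 5 tested T cell transcription factors, 1 rose in Pmel_D+T against Pmel_V, Ikzf1, which all lymphoid cells use, by 1.62 ± 0.23 (adjusted p = 0.000191), while Runx3 (-0.09), Eomes (0.15) and Lef1 (-0.07) did not pass. Among 5 tested cytokine and activation genes, Ccl5, a chemokine made by activated T and NK cells, rose by 2.60 ± 0.28 (adjusted p = 3.67e-05). Cxcr3, the receptor that draws effector T cells to inflamed tissue, fell by 0.83 ± 0.28 (adjusted p = 0.0304), and it fell in control tumours as well (-1.58 ± 0.30, 0.00209). Lag3 and Il2rb gave 0.26 and 0.08 and did not pass.

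Markers of other cells moved beside the T cell genes. Their counts stand against 45.6% of all genes changed in Pmel_D+T against Pmel_V, 35.4% in Mock_D+T against Mock_V and 4.24% in Pmel_D+T against Mock_D+T. Of 12 general leukocyte genes all 12 rose in Pmel_D+T against Pmel_V (median 1.41), among them Ptprc, the CD45 gene, by 2.77 ± 0.25, and 11 of 12 were higher than in Mock_D+T. Their mean level was 6.76 to 6.82 in Mock_V, 7.28 to 7.37 in Mock_D+T, 7.17 to 7.20 in Pmel_V, 7.44 to 7.80 in Pmel_T, 8.57 to 9.06 in Pmel_D and 8.67 to 9.10 in Pmel_D+T. Of 10 macrophage genes 7 rose (median 1.50), with mean levels from 8.12 to 8.14 in Mock_V up to 9.50 to 9.97 in Pmel_D+T, and 5 of them rose in control tumours as well. Across the pmel-1 groups the leukocyte list kept the order of the T cell genes. It was higher in Mock_D+T than in Mock_V, with 4 of its 12 genes called, a share near the 35.4% of all genes. No T cell gene was called there, but Cd3g, Trbv1 and Ms4a4b lay near background on all control arrays, so the 2 lists cannot be contrasted.

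Of 7 tested NK and cytotoxic genes 5 rose in Pmel_D+T against Pmel_V (median 1.05), where 45.6% of all genes changed, and 5 were higher than in Mock_D+T, where 4.24% did. Of the 9 such genes on the array, 7 were under 5.79 on every Pmel_V array and 6 on every Mock_D+T array. On every Pmel_D+T array 2 were. Some therefore entered the test only through the groups where they are high, so these counts are descriptions and support nothing. Klrd1, a receptor chain of NK and activated CD8 T cells, rose by 2.97 ± 0.33 (adjusted p = 4.46e-05), the granzyme gene Gzma by 1.91 ± 0.21 (4.83e-05) and Nkg7 by 1.83 ± 0.22 (6.84e-05), each of which T cells also express. Ncr1, the marker most restricted to NK cells, read 5.48 to 5.86 on all 13 arrays, at or near the lower limit of 5.79, so nothing is read from it. In the interaction 3 of the 7 genes passed (Klrd1, Nkg7 and Gzma), where 0.283% of all genes tested did. Klrd1 read 4.56 to 4.87 on the control arrays, near background, and nothing is read from this count. With the 3′ to 5′ ratio as a covariate 0 of all genes passed the interaction. B cell markers stood at a mean of 5.95 to 6.19 on all arrays, and 1 of 5 rose, Cd22, by 0.40 ± 0.11. Dendritic cell markers gave 1 rise in 5 (Itgax, which macrophages share), mast cell and platelet markers 0 in 5, and fat and muscle markers 0 in 3 each. Housekeeping genes gave 3 falls in 7 (Actb, Tbp and Hprt). The part of these other cells and of RNA integrity in the T cell results was not tested beyond the values with and without the 3 tumours and the covariate.

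**Figure D4:**
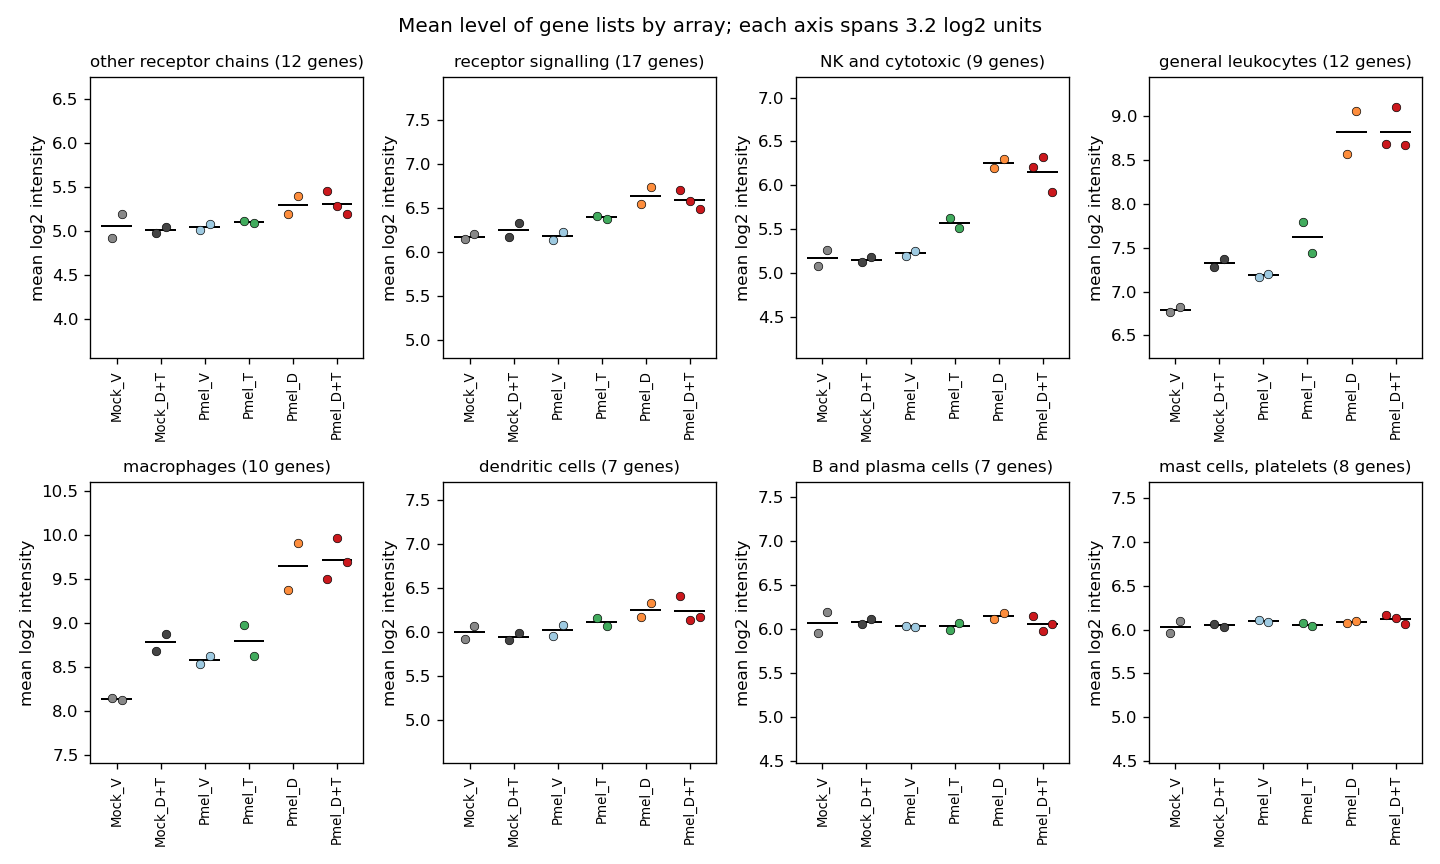
Mean log2 intensity of marker lists by array and group, each axis spanning 3.2 log2 units; points are arrays and bars are group means. The general leukocyte list runs from 6.76 in Mock_V to 9.10 in Pmel_D+T, while the B cell list stays at 5.95 to 6.19.

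The T cell genes were also compared with all other tested genes by their profile over the 13 arrays. Each of the 10 was standardised and averaged, and Pearson r with that mean, a description over arrays that share groups, was 0.95 for Lat, 0.94 for Cd3d and Trbv1, 0.93 for Ms4a4b and Cd3e and 0.91 for Cd3g. It was 0.78 for Cd4, 0.60 for Cd6, 0.47 for Zap70 and 0.39 for Cd8a by its tested probe set. The 10 other genes with the highest r were Ikzf1 (0.973), Rnase6 (0.968), H2-Eb1 (0.967), Ifi209 (0.964), Ctsw (0.964), Il12rb1 (0.961), Plbd1 (0.960), Ipcef1 (0.959), H2-M3 (0.958) and Ptpn22 (0.955). H2-Eb1, an MHC class II chain, averaged 7.61 in Mock_V, 8.26 in Mock_D+T, 8.09 in Pmel_V, 9.51 in Pmel_T, 11.78 in Pmel_D and 11.51 in Pmel_D+T, the group order of Trbv1 but for Pmel_V below Mock_D+T and Pmel_D above Pmel_D+T. Ctsw, a cathepsin of cytotoxic lymphocytes, averaged 5.86, 5.80, 6.10, 6.38, 7.34 and 7.36 in the same groups.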

How the data were processed

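RNA of SM1 tumours was measured on 13 Affymetrix GeneChip mouse arrays. The authors deposited log2 intensities per probe set, made with RMA and the affy package per the submitters' processing notes; the sources used here give no versions, batches, doses or times. At equal quantiles the arrays differed by at most 0.19. Of 45101 probe sets 64 are controls, 34945 have 1 gene symbol, 932 several and 9160 none. The probe set with the highest mean stood for each gene, and a gene was tested if it exceeded 5.79, percentile 40 of the whole table, on at least 2 arrays.

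The 6 group means were fitted together in limma 3.58.1 under R 4.3.3 (lmFit and eBayes; 7 residual degrees of freedom). Each of 10 comparisons had its own Benjamini-Hochberg adjustment. The script was tested on simulated data. The members and the gene lists were chosen with earlier results of these data known. All 10 members are named, with up to 4 genes of each list with the smallest p in Pmel_D+T against Pmel_V, the 10 genes most like the members, and Adipoq and Acta1. Genes named beyond this (Themis, Fyn, Plcg1, and Cd247, Cd2, Cd5, Cd28 and Ncr1 as markers) were added after their values were seen. Alternatives were the filter, the arrays fitted, the centring, the probe sets, array weights, a replicate block, the 3′ to 5′ ratio as a covariate and arrays left out. Promoters come from RefSeq (GRCm38.p6), and Cd4, Cd6 and Trbv1 were not matched there.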

Additional observations from a re-analysis of the deposited data

Results flagged for a closer look

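For 3 of the T cell genes the effect of dabrafenib with trametinib differed between pmel-1 and control recipients by the test of the interaction. The difference of the log2 changes was 3.32 for Ms4a4b, 2.79 for Trbv1 and 2.30 for Cd3g, with the control arrays near background under both treatments. Trbv1 passed the lower limit only through pmel-1 arrays. Ms4a4b and Cd3g were near background in pmel-1 vehicle tumours too and passed it only through the dabrafenib and combination arrays, so the sizes for these genes are not exact. Their adjusted p-values in limma were 0.0391, 0.0498 and 0.0498, and the calls were lost without any 1 of 7 to 9 arrays. The drug-treated pmel-1 arrays also had the highest 3′ to 5′ ratios (0.60 to 1.65, against 0.18 to 0.42 elsewhere), and with that ratio as a covariate Trbv1 gave 2.25 and Ms4a4b 2.98, neither of which passed.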

How the results depend on the processing

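Of 100 differences (10 genes in 10 comparisons) 28 passed, and 14 of the 28 passed under all 23 alternatives: Cd3d, Cd3g, Trbv1, Lat and Ms4a4b for both drugs and for dabrafenib against vehicle in pmel-1 recipients, and Cd3d, Cd3g, Trbv1 and Ms4a4b for pmel-1 against control recipients under both drugs. For the interaction 1 gene passed with median centring and 0 with the 3′ to 5′ covariate. For trametinib against vehicle, in place of 1 gene, 4 passed when the compared groups were fitted alone, 3 with array weights and 0 with median centring, with the covariate, without the 3 tumours high in Adipoq and over all probe sets without a filter. Fitting the compared groups alone, 0 passed for the combination and 0 for dabrafenib against trametinib; array weights gave 1 for the latter. The causes were not tested. Over all probe sets, with and without the filter, Cd8a in Pmel_D+T against Mock_D+T read 0.66 through another probe set, against -0.01. All probe sets without a filter, and the most variable probe set per gene, were added after seeing the data.

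Leaving out 1 array at a time gave 5 to 7 genes for both drugs and 5 to 7 for dabrafenib against vehicle in pmel-1 recipients, 0 to 3 for trametinib, 4 to 6 for pmel-1 against control recipients under both drugs, 0 to 4 for the interaction, 0 to 4 for the combination and 0 to 3 for dabrafenib against trametinib, and 0 in the other 3 comparisons. A group left with 1 array was assumed to vary like the others.

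Whether replicate numbers pair the samples could not be decided, and the labels do not say what the numbers stand for. In every group but Pmel_D+T the arrays deviate from their group mean by exact opposites, so every correlation recurs with its sign reversed. Deviations correlated above 0.1 in 4 of 23 pairs of same-numbered arrays (-0.46 to 0.45) and in 16 of 47 other pairs (-0.45 to 0.46). With the number as a replicate block 0 genes passed for the interaction, 0 for trametinib against vehicle, 0 for the combination against trametinib and 1 for dabrafenib against trametinib, and all genes called fell to 1 for the interaction, 232 for pmel-1 against control recipients under both drugs, 12 for the combination and 24 for dabrafenib against trametinib.

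Counts over all genes moved more. For both drugs against vehicle in pmel-1 recipients 6282 genes passed, 6216 without the lower limit and 2756 with the covariate. Fits over probe sets count probe sets and not genes, so their counts are on another scale. With the filter 12425 probe sets passed, and without it 12503, which is 27.8% of all probe sets, against 45.6% of genes tested. For dabrafenib the 5709 genes became 2511 with the covariate and 3307 without the 3 tumours, and 11292 and 11175 probe sets passed. For trametinib the 5323 genes became 3371 with the covariate, and 10439 and 10205 probe sets passed. For both drugs in control recipients 4874 genes passed, and 8336 and 8045 probe sets. For the interaction the 39 became 90 with only the arrays compared, 10 with median centring, 0 with the covariate, 65 with weights, 104 and 93 over probe sets, 85 without the 3 tumours and 95 with the most variable probe set. For pmel-1 against control recipients under both drugs the 584 became 378 with only the arrays compared, 46 with the covariate and 331 without the 3 tumours. For pmel-1 against control vehicle the 0 became 3 without the lower limit, 5 with weights and 1 without the 3 tumours. It became 2 with only the arrays compared and 2 with the covariate. It stayed 0 with median centring, the replicate block, the fits over probe sets and the most variable probe set. For the combination against trametinib the 151 became 286 with weights, and for dabrafenib against trametinib the 107 became 0 with only the arrays compared, 191 with the covariate and 27 without the 3 tumours.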
